A study of Drosophila melanogaster with 2 samples.

Results

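The gene set is a list of 35 Drosophila melanogaster genes of mesoderm and muscle: 10 regulators of mesoderm and muscle identity, 4 genes of myoblast fusion, 2 integrin genes and 19 genes of the contractile apparatus and its scaffold. Members were chosen by name and not by any measured value, although earlier results of these data were known. All 35 were found among the 13945 protein-coding genes annotated on the main chromosome arms, 34 by symbol and Unc-89 under the synonym Obsc. The data are chromatin immunoprecipitation followed by sequencing (ChIP-seq) with an antibody against GFP, in whole embryos aged 6 to 24 hours, males and females pooled. All embryos came from 1 stable transgenic line in which the protein CG6683 carries GFP at its C-terminus, so every sample carries the fusion. The 2 samples, biological replicates numbered 2 and 3, form 1 group, and no untagged or other comparison group was analysed here. Muscle is one of many tissues in such chromatin, and strong signal in few cells cannot be told apart from weak signal in many.

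Muscle of the fly embryo comes from mesoderm in which Twist and its target Tinman are followed by tissue factors such as Bagpipe, Biniou and the Ladybird proteins, while Mef2 switches on differentiation genes. Founder cells, which carry the receptor Kirre, fuse with fusion-competent myoblasts, which carry Sticks and stones, and the adaptor Rols and the Rac activator Mbc act inside the cell. The resulting fibres attach to tendon cells through integrins and build sarcomeres from myosin thick filaments, actin, troponin and tropomyosin thin filaments, and scaffold proteins of the Z-disc and M-line.

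Peaks are described at 2 levels. The optimal list holds the peaks that the authors kept after thresholding on the irreproducible discovery rate (IDR), 2964 of them on the main arms, and the pooled list holds 29984 candidates there, of which the optimal peaks are those of highest signal. Signal is the authors' own value per peak (column 7 of the lists), with no stated normalization, and is comparable only within a list. It ran from 171 to 3257 in the optimal list and down to 28.5 among the pooled candidates. Sequences from 75 bases before to 75 bases after 6 summits are shown because these are the 6 member peaks of highest signal. They are dm6 sequence on the plus strand, which is also the strand of each gene, and capitals mark matches, on either strand, to MEF2, E-box, Tinman, Forkhead, GAGA, DRE or ACAGTG words.
Msp300, upstream of an internal start, chr2L:5145680-5145830: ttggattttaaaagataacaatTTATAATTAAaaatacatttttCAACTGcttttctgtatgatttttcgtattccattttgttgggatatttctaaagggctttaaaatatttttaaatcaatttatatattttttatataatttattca
kirre, intron near Syx4, chrX:2744152-2744302: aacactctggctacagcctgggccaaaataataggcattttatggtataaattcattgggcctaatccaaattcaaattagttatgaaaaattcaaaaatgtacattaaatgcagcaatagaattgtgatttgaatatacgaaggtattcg
mbc, intron, chr3R:23783164-23783314: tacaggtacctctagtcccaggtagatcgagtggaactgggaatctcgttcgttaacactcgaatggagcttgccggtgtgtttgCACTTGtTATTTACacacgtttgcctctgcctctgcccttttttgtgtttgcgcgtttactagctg
Msp300, promoter of internal starts, chr2L:5108081-5108231: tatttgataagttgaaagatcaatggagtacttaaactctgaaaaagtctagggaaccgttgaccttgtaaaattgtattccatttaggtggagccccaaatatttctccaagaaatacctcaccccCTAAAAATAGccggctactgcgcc
kirre, intron in CG32795, chrX:2787411-2787561: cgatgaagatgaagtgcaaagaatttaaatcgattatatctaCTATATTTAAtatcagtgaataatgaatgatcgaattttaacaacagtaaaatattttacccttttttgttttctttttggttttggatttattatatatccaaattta
tin, promoter, chr3R:21378708-21378858: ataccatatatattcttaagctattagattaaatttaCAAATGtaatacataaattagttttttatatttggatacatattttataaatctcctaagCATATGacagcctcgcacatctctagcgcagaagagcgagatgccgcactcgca

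The strongest of these, in Msp300, held an E-box, CAACTG, and a MEF2 match in a window with a GC content of 20.9%. The stronger kirre stretch held none of the marked words. The tin promoter held 2 E-boxes, and the mbc stretch held an E-box and a Forkhead word next to each other.

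An optimal summit was present at 10 of the 35 genes (28.6%), against 17.3% of all protein-coding genes. Within 500 bp of an annotated transcript start, here called the promoter, 4 members had one, which were tin, rols, mys and Msp300. That is 11.4% of the members, close to the 13.3% of all genes. Elsewhere in the gene body, 7 members had an optimal summit (20%), against 5.72% of all genes, and these were Mef2, how, kirre, mbc, Zasp52, Zasp66 and Msp300. Gene length moved with this count. The members had a median length of 12.5 kb, against 2.17 kb over all genes, and their gene bodies held 1.34 optimal summits per 100 kb (16 in 1192 kb), against 1.33 over all genes. Lengths in this and later densities include the 500 bp around starts, a larger part of short genes than of long ones. With these left out the member value was 1.40, and that of all genes was not computed. In length classes, 0 of 11 members under 5 kb had an optimal body summit (0.975% of all such genes), 2 of 10 from 5 to under 20 kb (13.8%), 2 of 6 from 20 to under 50 kb (31.4%) and 3 of 8 of 50 kb or more (43.3%).

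Among the pooled candidates, counts were again set beside those of all genes. A promoter candidate was present at 19 members (54.3%, against 50.5% of all genes) and a body candidate at 18 (51.4%, against 30.1%), with 19.2 body candidates per 100 kb in members and 18.7 over all genes. The 43 promoter and 229 body candidates of the members had a median signal of 51.2, against 55.3 for all candidates. Neighbouring candidate intervals can overlap, so counts of candidates are counts of summits and not of separate sites. The strongest promoter candidate of a member had a median signal of 85.5 over the 19 members with one, against 103 over all 7038 genes with one.

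**Figure D1:**
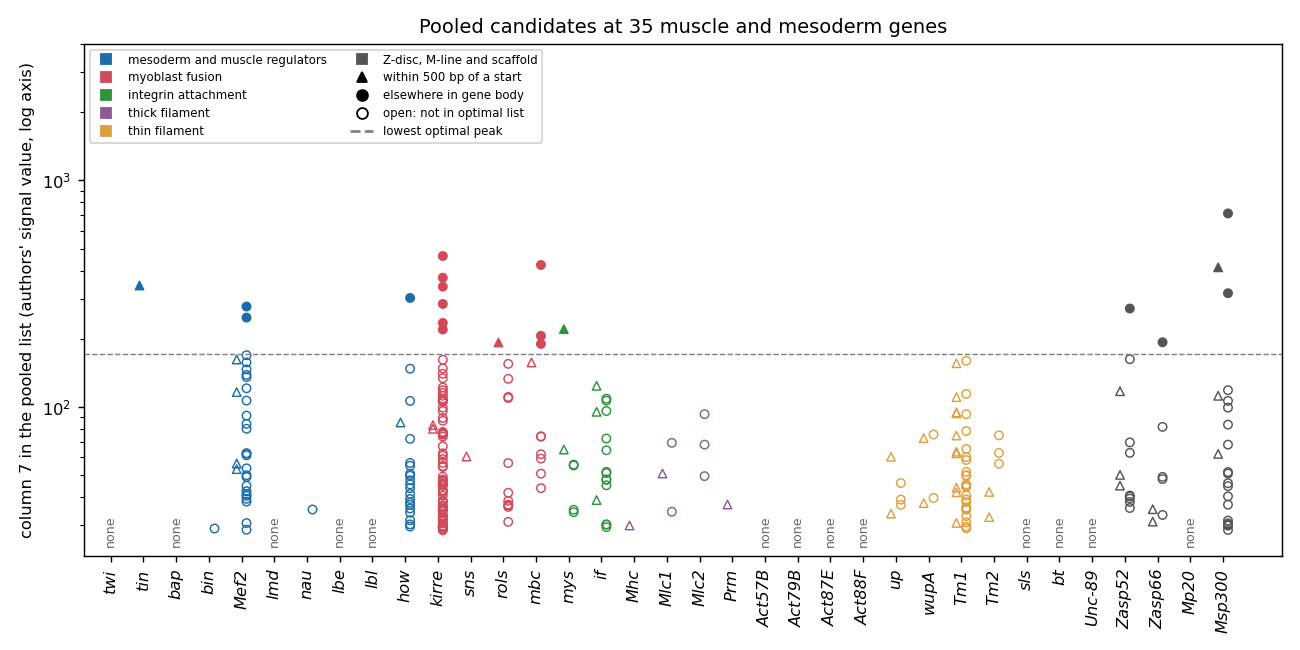
Signal of every pooled candidate summit in the 35 genes, on a log axis, with genes ordered by role and promoter and body summits marked apart. The optimal summits lie between 190 and 715, and 13 genes have no pooled candidate.

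**Figure D2:**
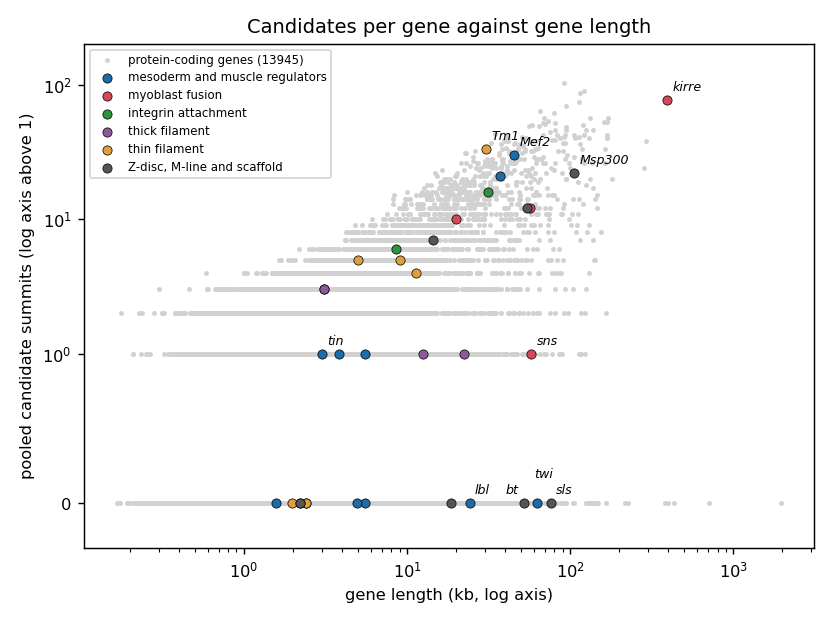
Number of pooled candidate summits per gene against gene length in kb, with all 13945 protein-coding genes in grey and the members coloured by role. The counts of kirre and Tm1 are 77 and 33, while sns has 1 and sls, twi, bt and lbl have 0 despite their length.

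Of the 10 regulators, tin, Mef2 and how had optimal summits, bin and nau had lower candidates, and twi, bap, lmd, lbe and lbl had no pooled candidate. At tin, which encodes the NK-type homeodomain factor of dorsal mesoderm and heart, the only candidate was an optimal peak (chr3R:21378611-21378881) upstream of the single annotated start, with its summit at an offset of -194 bp. Its signal was 347 in the pooled list, 154 in the list labelled replicate 2 and 196 in that labelled replicate 3, and it was among the 2964 strongest candidates of each replicate list. Tinman is the only homeodomain factor among the members with any pooled candidate.

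Mef2, the MADS-box factor of muscle differentiation, spans 45.4 kb on 2R and held 30 pooled candidates. Both optimal peaks lay in introns. The peak at chr2R:9955516-9955628 had its summit at 3294 bp from the nearest start and signals of 278 pooled, 143 in replicate 2 and 168 in replicate 3. The peak at chr2R:9949040-9949382 was at -4455 bp from the nearest start, with 248 pooled, 66.5 and 194, so the lists of the replicates stood farther apart there than at the first. The next candidate, at 169, lay just under the lowest optimal signal. At the promoters of Mef2 the strongest pooled candidate reached 162, with 99.7 in replicate 2 and 55.3 in replicate 3.

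At how, which encodes a KH-domain RNA-binding protein of muscle and tendon, an intronic peak at chr3R:22049173-22049413 lay 7104 bp inside the gene. Its signals were 303 pooled, 163 in replicate 2 and 153 in replicate 3. It was one of the few member peaks that were not higher in replicate 3. The promoter candidate of how was lower, at 85.5 pooled. The Forkhead factor gene bin and the MyoD-family gene nau held 1 candidate each, with pooled signals of 29.1 and 35.4, both near the foot of the pooled list and far from the optimal range.

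The fusion genes carried 10 of the 20 optimal member summits, and 6 of these were in kirre alone. They are long, with a median length of 57119 bp, and also held 100 of the 272 pooled candidates of members. An optimal body summit was present at 43.3% of all genes of 50 kb or more, the class of kirre, sns and rols. Counts per kb were not compared between roles. kirre encodes the immunoglobulin-superfamily receptor of founder cells, is the longest member at 394 kb and held 77 pooled candidates. The highest optimal summit in kirre had a pooled signal of 464, with 233 in replicate 2 and 242 in replicate 3, and lay in an intron at 3422 bp from the nearest kirre start. It was nearer to the start of another gene, Syx4, at -151 bp. The neighbouring summit, with 285 pooled, 131 and 156, was also nearest to Syx4, at -323 bp. A pair of summits with pooled signals of 372 and 340 lay 46.7 and 45.9 kb from the nearest kirre start and within CG32795, a gene inside kirre. Their signals were 153 and 120 in replicate 2, and 230 and 223 in replicate 3. The remaining summits of kirre had 235 and 220 pooled. The former lay at -2338 bp from an internal kirre start, and the latter 166 bp into CG3588, another gene inside kirre, with no candidate in the list of replicate 2. Of all 6 summits in kirre, 1 was nearest to a start of kirre itself.

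In mbc, whose product activates Rac during fusion, 3 optimal summits stood together in an intron at 1208, 1474 and 2423 bp from the only start. The middle one (chr3R:23783135-23783410) was the strongest, with 423 pooled, 146 in replicate 2 and 266 in replicate 3. The others had 190 and 206 pooled, the former with no candidate in the list of replicate 3. The mbc promoter held a candidate of 157, below the optimal list, and its summit was 61 bp into the neighbouring gene Nup98-96, which encodes nuclear pore proteins. rols, the adaptor gene of founder cells, had an optimal summit at -350 bp from an internal start (chr3L:12056748-12056866). Its signals were 193 pooled, 41.7 in replicate 2 and 160 in replicate 3, the widest ratio between the replicate lists among the member peaks (3.84). sns, the receptor gene of the fusion-competent cells, held few candidates in the pooled list. In its 57.6 kb that list placed a single one, at -290 bp from the start, with 60.9 pooled and overlapping candidates of 56.5 in replicate 2 and 27.1 in replicate 3. The list of replicate 2 alone placed 2 promoter and 6 body candidates at sns. That of replicate 3 placed 1, at the promoter, with a signal of 30.8. It is not the overlapping candidate of 27.1, whose summit lies farther than 500 bp from the start. The body candidates of replicate 2 had signals from 17.8 to 27.4, below the 29.1 that is the median of that list.

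**Figure D3:**
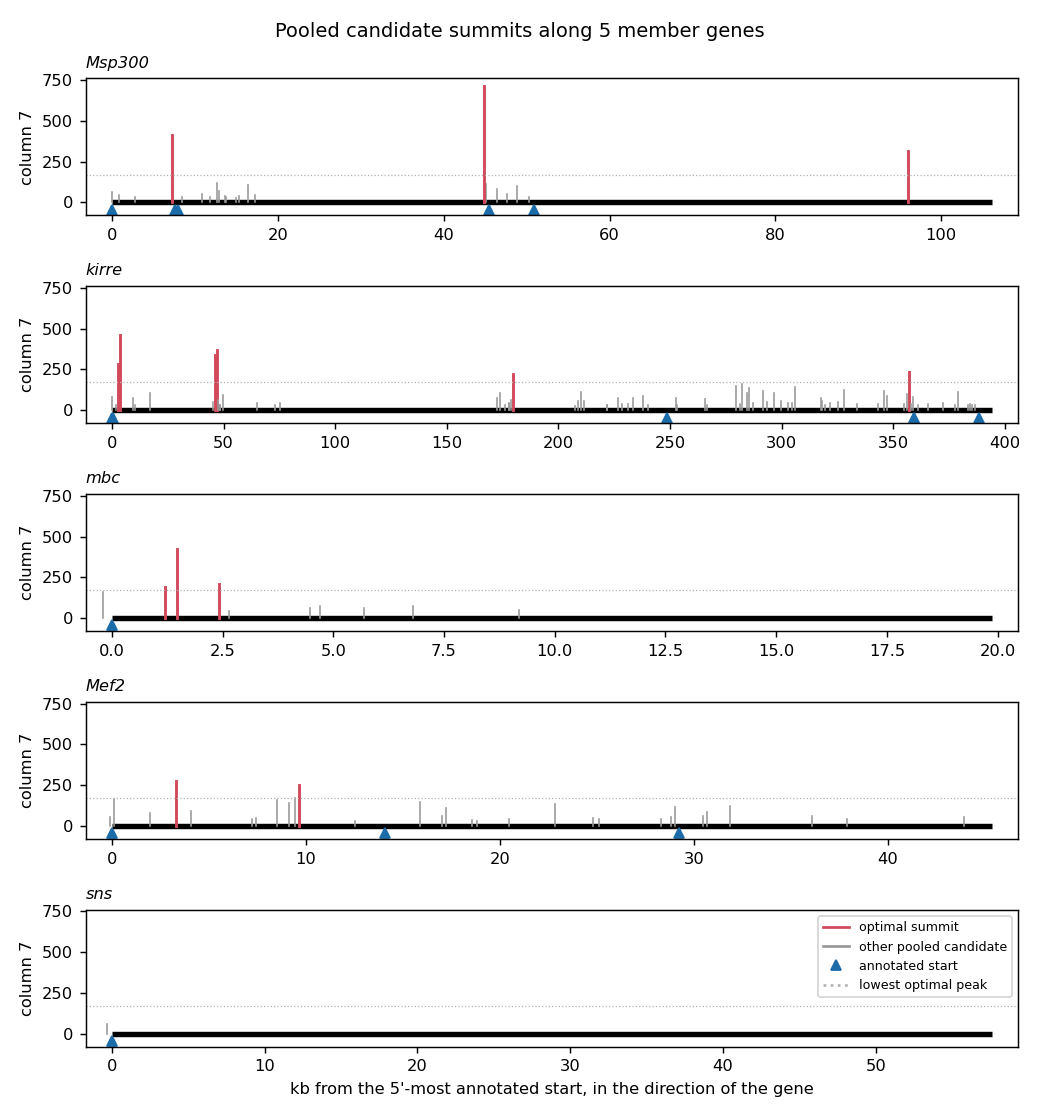
Pooled candidate summits along Msp300, kirre, mbc, Mef2 and sns, in kb from the 5'-most annotated start, with stem height giving the pooled signal and triangles the annotated starts. Optimal summits are in red; sns holds 1 pooled candidate, at its promoter, and the 6 optimal summits of kirre stand in 4 places.

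Of the integrin genes, mys and if both had promoter candidates, and that of mys was optimal. The mys summit, in the gene of the integrin beta chain, lay 21 bp inside the gene in its 5' UTR, with 220.5 pooled, 93.3 in replicate 2 and 129 in replicate 3. if, the gene of an integrin alpha chain, held 16 candidates, none of them optimal. The strongest, at 129 bp from a start, had 124 pooled, 51.9 in replicate 2 and 97.3 in replicate 3.

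None of the 4 thick-filament and 8 thin-filament genes had an optimal summit, against 17.3% of all genes. Their median lengths were 7784 bp and 3708 bp. An optimal body summit was present at 0.975% of all genes under 5 kb and 13.8% of those from 5 to under 20 kb. It was present at 31.4% of those from 20 to under 50 kb, the class of Mhc and Tm1. An optimal promoter summit was present at 13.3% of all genes. Whether a count of 0 in so few genes departs from these shares was not tested. Mhc, the muscle myosin heavy chain gene, held 1 candidate in 22.2 kb, with 30.1 pooled, 34.2 in replicate 3 and none in replicate 2. Prm, the paramyosin gene, held 1 candidate of 37.2, at -90 bp from a start. The light chain genes Mlc1 and Mlc2 held 3 candidates each, with highest signals of 69.4 and 92.9. Both of those highest candidates lay in the 3' UTR and nearer to the start of the next gene, tau at -371 bp and Rsod at -290 bp. The candidates at the myosin genes thus reached lower signals than any optimal peak.

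Among the thin-filament genes, the tropomyosin gene Tm1 was the exception in number of candidates. It held 33 in 30.6 kb, 10 of them within 500 bp of its 8 annotated starts, with a highest pooled signal of 160, just short of the optimal list. Some of these intervals overlap each other and match the same candidate of a replicate list, so 33 is not a number of separate sites. The promoter candidates include summits nearest to the starts of the genes MRG15, l(3)neo43 and CG45218. The strongest of the Tm1 promoter candidates lay at -278 bp from an internal start, with 156 pooled, 28.1 in replicate 2 and 140 in replicate 3. It was among the 2964 strongest in the list of replicate 3 but not of replicate 2. Tm2, the neighbouring tropomyosin gene, held 5 candidates with a highest signal of 74.96. The troponin genes up (troponin T) and wupA (troponin I) held 5 and 4, with highest signals of 60.3 and 75.6. The actin genes Act57B, Act79B, Act87E and Act88F held none.

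Of the 7 scaffold genes, Msp300, Zasp52 and Zasp66 had optimal summits and sls, bt, Unc-89 and Mp20 had no pooled candidate. Msp300 encodes a nesprin that anchors nuclei in muscle, spans 106 kb and held the highest member peak of all (chr2L:5145527-5145983). That summit lay in an intron at -631 bp from an internal start, with 715 pooled, 228 in replicate 2 and 485 in replicate 3. A further optimal summit stood at -356 bp from another internal start, with 413 pooled, 153 and 260. The last lay in an intron 96.0 kb into the gene, with 318 pooled, 189 in replicate 3 and no candidate in the list of replicate 2. No pooled candidate in Msp300 lay between its last annotated start and this summit. The Z-disc gene Zasp52, on 2R, had an intronic summit at -8931 bp from the nearest start, with 272 pooled, 116 in replicate 2 and 158 in replicate 3. Zasp66, a further Z-disc gene, had one at -1162 bp, with 193 pooled, 75.3 and 112. Both Zasp promoters held candidates below the optimal list, at 117 and 35.4.

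No pooled candidate summit was present at 13 of the 35 genes (37.1%), against 45.6% of all protein-coding genes. Short members account for 7 of these, out of 11 under 5 kb (51.9% of all genes of that length had none). The others were 2 of 10 members from 5 to under 20 kb (27.4%), 1 of 6 from 20 to under 50 kb (24.4%) and 3 of 8 of 50 kb or more (23.8%). The last were twi, bt and sls. The gene span of twi, 63.0 kb, is set by the farthest of its 3 annotated starts. Absence from a list of fixed length shows only that no candidate ranked high enough, not that signal was absent.

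In the pooled list, several of these genes sat in long stretches without a pooled candidate. The median distance between neighbouring pooled candidates was 1.09 kb. sls, which encodes a titin-like protein, lay in a stretch of 176 kb, and 4.63% of all genes lie in one at least as long. lmd, a zinc-finger gene of the fusion-competent myoblasts, lay in one of 157 kb (5.94%). bap, lbl and lbe shared one of 142 kb (7.23%), twi, the bHLH gene that specifies mesoderm, lay in one of 119 kb (9.48%), and Act79B in one of 116 kb (10.5%). The stretches at bt, Mp20, Act57B, Act88F, Unc-89 and Act87E ran from 76.7 down to 26.7 kb. Some of these lengths rested on which list was read. In the list labelled replicate 2 the stretch was again 142 kb at bap, lbl and lbe and 157 kb at lmd. In that labelled replicate 3 it was 28.2 kb at bap, 75.01 kb at lbl and lbe and 48.0 kb at lmd, while that of Act79B was 117 kb. At twi, sls and bt the list of replicate 3 held candidates in the gene itself, and at bt the stretch in replicate 2 was 136 kb. In all, 10 members (28.6%) lay in the 393 stretches of 50 kb or more, against 21% of all protein-coding genes. By the list of replicate 2 it was 9 members (25.7%, against 19.9%), and by that of replicate 3 it was 5 (14.3%, against 17%), so the members stood above the share of all genes in one list and below it in the other. The 393 stretches cover 41.2 Mb of the main arms and held 524 candidates of replicate 2 and 954 of replicate 3.

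The pooled stretch shared by bap, lbl and lbe begins at the tin peak. These homeodomain genes are neighbours on 3R, with bap starting 9.90 kb downstream of the tin start. Upstream of tin, optimal summits lay in mod(mdg4) at -13.5 kb, between mod(mdg4) and aus at -28.8 kb and in aus at -39.7 kb, with pooled signals of 454, 172 and 248. Downstream, the next pooled candidate after the tin summit was at 141 kb from the tin start and had a signal of 931. No list, pooled or of either replicate, placed a candidate at bap, lbl or lbe themselves.

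**Figure D4:**
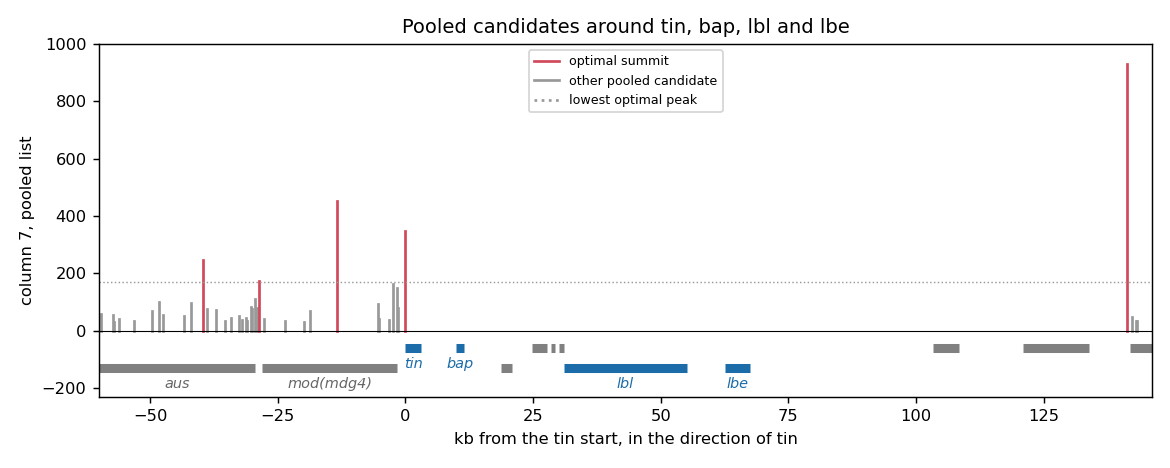
Pooled candidate summits around tin, with distance from the tin start in kb on the x axis and pooled signal on a linear y axis, optimal summits marked apart and protein-coding genes drawn below. Pooled candidates are dense upstream of tin, and none lies between the tin summit and the candidate of signal 931 at 141 kb.

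The lists of single replicates held candidates at some of the 13. In the list labelled replicate 3, sls had a promoter candidate of 134 at -258 bp from its start, ranked 1993 in that list, with no counterpart in the other lists. Act87E had one of 84.2 at -267 bp, twi one of 46.1 in its gene body, and bt, the projectin gene, 7 from 22.1 to 61.8. In the list labelled replicate 2, Act57B had candidates of 23.8 and 21.8. The remaining 8 genes, bap, lmd, lbe, lbl, Act79B, Act88F, Unc-89 and Mp20, had none in any of the 3 lists.

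The replicate lists shared some of the member promoters that ranked high. Among the 2964 strongest candidates labelled replicate 2, 5 members had a promoter summit (14.3%, against 14.1% of all genes), which were tin, Mef2, mys, Zasp52 and Msp300. Among those labelled replicate 3 it was 7 members (20%, against 12.8%), which were tin, rols, mbc, mys, Tm1, sls and Msp300. Only tin, mys and Msp300 were in both. Body summits were present in 7 members in replicate 2 (20%, against 5.2%) and 8 in replicate 3 (22.9%, against 5.8%). These body shares were not split by gene length, and the median length was 12.5 kb in members against 2.17 kb over all genes.

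Of the 20 optimal member summits, 18 had an overlapping candidate in the list labelled replicate 2, 19 in that labelled replicate 3 and 17 in both, while 98.3% of all 2964 optimal peaks had both. The 3 exceptions were the Msp300 summit 96.0 kb into the gene and the kirre summit at CG3588, without replicate 2, and the first mbc summit, without replicate 3. At the 17 with both, the signal was higher in replicate 3 at 15, and over all 2913 optimal peaks with both it was so at 83.5%. The median ratio was 1.49 (range 0.893 to 3.84), against 1.42 over all optimal peaks. The signals of the replicate lists had a Spearman rho of 0.583 across these 17 peaks, which share libraries and were chosen for high pooled signal. The ratio compares values from separate lists with no stated normalization and is a description of the lists only.

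**Figure D5:**
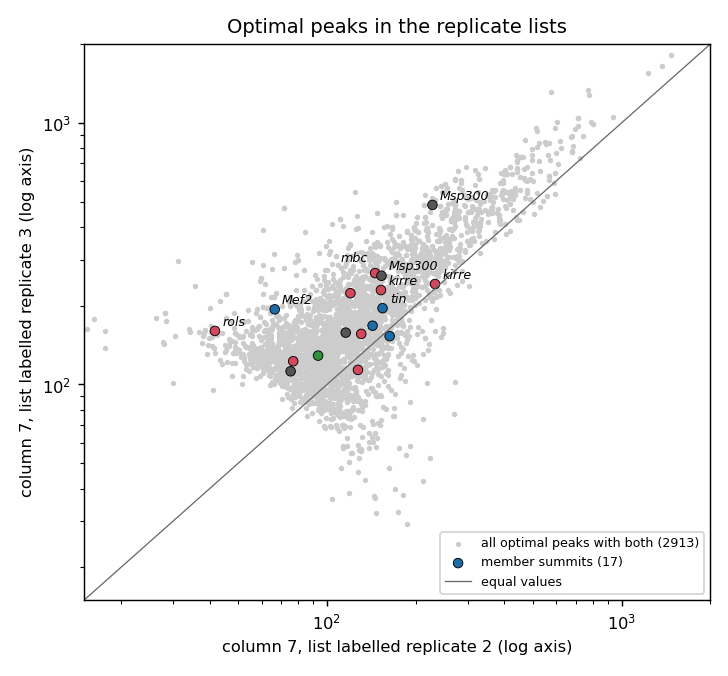
Signal in the list labelled replicate 2 (x axis) and replicate 3 (y axis), both log, for the 17 member optimal summits with a candidate in both lists, over all optimal peaks in grey. Of the 17, 15 lie above the line of equal signal, as do 83.5% of all optimal peaks with both.

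As a group, the optimal member summits lay within the range of other optimal peaks in signal and width. The median signal was 281 (190 to 715), against 261 over all optimal peaks, and the median width 242 bp (113 to 457 bp), against 304 bp. By position, 16 of the 16 body summits lay in introns, against 94% of the 1282 optimal body summits of all genes. The promoter summits of rols and Msp300 were in introns, that of tin upstream of its gene and that of mys in the 5' UTR. The GC content within 100 bp of the summits was 35.1% (SD 6.25 across 20 peaks), against 35.5% (SD 7.68) over all optimal peaks. Candidates of members below the optimal list had 39.8%, against 40.5% over all such candidates.

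Binding words of the muscle regulators were found at member summits at shares near those of other optimal peaks. A MEF2 word was present within 100 bp of 3 of the 20 summits (15%), 2 in Msp300 and 1 in kirre, against 13.6% of all optimal peaks and 8.44% of the lower candidates. An E-box, CANNTG, the core bound by bHLH factors such as Twist, was present at 10 (50%, against 59.2% and 62.9%). A Tinman word, TCAAGTG or TTAAGTG, was present at 2, in kirre and rols (10%, against 8.16% and 7.54%), and not at tin itself. A Forkhead word, bound by factors of the family of Biniou, was searched in the form ATAAACA, in the form ATAAATA, in the form GTAAACA and in the form GTAAATA. One of these forms was present at 10 summits (50%, against 45.6% and 33.3%). Forkhead and MEF2 words, which are rich in A and T, were thus more frequent in optimal peaks of any gene than in lower candidates, and GC content moved with them; its part in the difference was not tested.

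The other words searched were those of general chromatin factors and 2 words more frequent in the optimal peaks of all genes than in lower candidates. The optimal peaks of all genes include the member summits. GAGAG, the core of the GAGA element, was present at 0 of the 20 member summits, against 23.5% of all optimal peaks, while it was present at 25% of the 252 lower candidates of members. The DRE, TATCGATA, was also at 0, against 3%. AAATAT was present at 13 (65%, against 55.8% and, for all lower candidates, 37.5%). ACAGTG was present at 5 (25%, against 18.2% and 10.5%), in kirre, mbc and mys. At the lower candidates of members the shares of these words were 44% and 12.7%. All words were searched on both strands, a word counted once per window, and words may overlap each other. A match describes the letters in the window only.

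A wider list of 81 other genes of mesoderm, fusion, attachment and sarcomere biology gave shares of the same order. An optimal promoter summit was present at 9 (11.1%, against 13.3% of all genes), an optimal body summit at 11 (13.6%, against 5.72%) and no pooled candidate at 27 (33.3%, against 45.6%). The median length of these genes was 8.22 kb, and they held 1.23 optimal body summits per 100 kb. The wider list includes rst, which lies inside the member kirre. Pooled candidates of rst are therefore counted in both sets, but it has no optimal summit. By role, promoter summits were at 1 of 27 identity genes, 3 of 14 fusion genes, 4 of 18 attachment genes and 1 of 22 sarcomere genes. The highest promoter signals were at Pax (1081), Vinc (563) and scb (519), which encode the adhesion proteins paxillin and vinculin and an integrin alpha chain, and at the T-box gene org-1 (373). The highest body signals were at tmod (456), the gene of the thin-filament capping protein tropomodulin, the homeodomain gene zfh1 (448), the FGF gene ths (330) and the laminin gene LanB1 (310).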

How the data were processed

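Peak lists on dm6 were used: an optimal and a pooled list for the series and a list of candidates for either replicate, with 30000 candidates in each list but the optimal. The signal per peak is column 7 as deposited by the authors, with no stated normalization. The summit position, another deposited value, is the authors' distance from the peak start. Per the labels, chromatin was sonicated to 200 to 800 bp and lists were made against a control. Aligner and peak caller: not given in the sources used here. Read depth is unknown, so no counting interval is given.

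Summits on the main arms were placed on Ensembl release 115 genes. A promoter summit lay within 500 bp of any transcript start of the gene, and a body summit elsewhere within it. A replicate's strongest candidates were its 2964 of highest signal. Sequences came from the Release 6 genome. The MEF2 word has 10 letters and was searched by its consensus. With 1 group, no test between groups was made. The members and lists were chosen with earlier results of these data known. Named genes were all members, up to 4 optimal summits each with others by value, and 4 wider genes per class. Only the placing of summits at promoters or in gene bodies was tested on simulated data. Python 3.11.15, pandas 2.3.3, NumPy 2.4.6, SciPy 1.17.1 and matplotlib 3.10.9 were used.

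The numbers of the replicates differ between builds: on 2L, 5020 of 5185 intervals labelled 2 on dm6 carry the same coordinates as dm3 intervals labelled 3. Labels here are those of the dm6 lists.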

Additional observations from a re-analysis of the deposited data

How the results depend on the processing

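The 9 results gave 46 values under other settings. Of these, 38 stayed within 1.5 times the value reported, or within its spread, and 8 moved. For the density and the median promoter signal, the spread was the SD over members. For the density it was 2.86, larger than the value of 1.34 itself, so no fall could count as moved. The SD for the median promoter signal was likewise larger than the median of 85.5. No fall could count as moved there either. With a promoter window of 200 bp, members with an optimal promoter summit fell from 4 to 2 (tin and mys) and genes of the wider list from 9 to 4. With the upper 50% of optimal peaks the same counts were 2 (tin and Msp300) and 5, and body summits were at 5 genes of the wider list in place of 11. Only 12 of the 20 member summits were in that upper 50%. Of these 12, 11 had a candidate in both replicate lists, in place of 17 of 20. With a window of 1000 bp, body summits were at 7 genes of the wider list. Using 1 replicate list, the member promoter count ran from 5 (without replicate 3) to 7 (without replicate 2), the member body count from 7 to 8, the wider promoter count from 8 to 11, the wider body count from 10 to 12, the pooled promoter count from 20 to 21, the pooled body count from 19 to 21, and the density from 1.01 to 1.68 per 100 kb. Leaving out body summits within 500 bp of another gene's start, an alternative chosen after seeing the data, gave 1.09 per 100 kb and 7 members. Fewer peaks enter with the upper 50%, so counts under it could only fall or stay. In the same way, a narrower window could only lower or keep promoter counts, and a wider one body counts. Why counts moved was otherwise not tested. No paired analysis was possible because there is 1 group. Without read counts, depth sets an unknown limit on which candidates were listed.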
